A study of Rattus norvegicus with 28 samples.

Results

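The transcripts described here were those with lower signal in the hippocampus of every injured rat than in sham-injured rats, whether or not the injured rat had received an antidepressant. They were chosen by measured values. On the deposited series table, a probe had to read above 0.02 on both Sham columns, the mean log2 value of each of the 4 injured groups had to lie at least 0.8 below the Sham mean, and all 12 injured columns had to lie below both Sham columns. Of the 30367 probes on the array, 18421 read above 0.02 in both Sham columns and 404 of these met the rule. The injured and Sham values below are therefore descriptions of the chosen probes, and no test of injury is given for them. The mirrored rule, with every sign turned, picked 453 probes.

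Adult male Sprague-Dawley rats received a severe fluid-percussion traumatic brain injury (TBI), in which a brief pulse of fluid pressure is applied to the dura, or a sham injury, and whole hippocampi were taken 24 h later. The groups analysed here were Sham (2 rats), TBI (3 rats), and injured rats given imipramine (TBI+Imipramine, 3 rats), fluoxetine under its trade name Prozac (TBI+Prozac, 3 rats) or sertraline under its trade name Zoloft (TBI+Zoloft, 3 rats) 1 h after injury. Each rat gave 1 one-colour Agilent array, and levels are log2 ratios to that array's own 75th percentile of detected signals, so that 0 is a bright probe and values near -6 lie at the detection limit. Sham rats given a drug were not analysed here.

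The hippocampus holds pyramidal and granule neurons, interneurons, astrocytes that clear glutamate and potassium and are coupled by gap junctions, and oligodendrocytes that make myelin. In whole tissue, fewer cells of a type and less RNA per cell cannot be told apart. Fluid-percussion injury is known to kill hippocampal neurons and to activate glia, and Notch signalling, endocannabinoid signalling and the perineuronal matrix are among the systems with known roles in this tissue.

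The arrays differed in ways that bear on every value below. The 2 Sham arrays were alone on slide 3 and were scanned on another day, so that slide, scan and injury cannot be told apart. The 3 TBI arrays and TBI+Prozac replicate 1 shared slide 1, and the other 8 drug arrays shared slide 2. Between 14676 and 18196 probes were above background per array, the lowest number being on TBI replicate 1, which also had the highest local background. Relative to Sham, the median of the 17322 probes kept for testing lay at 0.00 in TBI, 0.18 in TBI+Imipramine, 0.14 in TBI+Prozac and 0.00 in TBI+Zoloft. On the series table, whose 75th percentiles over all probes were 1.01 in every column, these medians lay between -0.07 and -0.02, and differences in TBI+Imipramine and TBI+Prozac were accordingly larger there.

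The 404 members were dim as a group. Of these probes, 125 were above background on all 14 arrays, 156 were above background on both Sham arrays but not on all injured arrays, and 123 were not above background on both Sham arrays, 91 of them on no array at all. The filter used for tests kept 281 members, of which 56 passed only because they were above background in Sham. Among the 6243 probes over the low limit with a mean log2 value above -1, 26 were members, which is 0.416%, against 242 of 3704 probes (6.53%) with a mean at or below -5. No fold change is given for the 123 probes that were not above background on both Sham arrays.

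**Figure D1:**
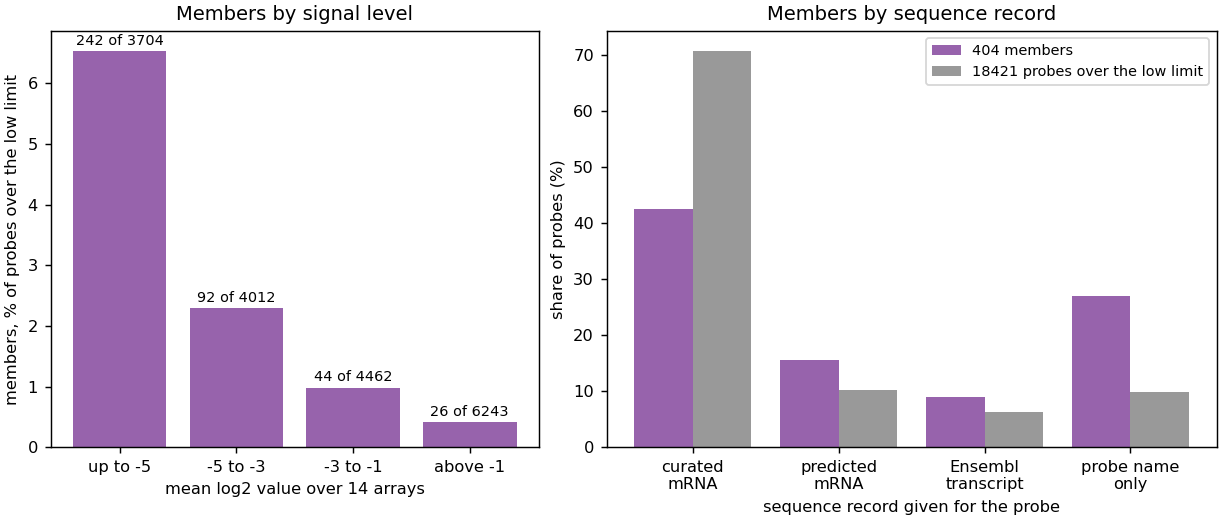
Left, members as a percentage of the probes over the low limit, in 4 classes of mean log2 value over the 14 arrays, with counts above the bars. Right, share (%) of the 404 members and of all 18421 probes over the low limit by the kind of sequence record given for the probe. The share of members rises from 0.416% among the brightest probes to 6.53% among the dimmest, and 27.0% of members carry only a probe name.

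Many members were not assigned to a known gene. A single RefSeq gene symbol was found for 167 members, which represented 163 genes and were all protein coding. That was 41.3% of members, compared with 67.7% of the probes over the low limit. The scanner files gave only a probe name for 109 members (27.0%, against 9.83% of probes over the low limit) and a predicted mRNA for 63 (15.6%, against 10.2%). The named share was higher among members above background on all 14 arrays, at 61 of 125 probes, than among the other classes, with 58 of 156 and 48 of 123, but stayed below the 70.2% of all such bright probes. The unnamed members are counted here and are not described as genes.

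Over all 404 members, the median difference from Sham on the scanner scale was -1.45 in TBI, -1.104 in TBI+Imipramine, -1.21 in TBI+Prozac and -1.13 in TBI+Zoloft. The medians of the single arrays ranged from -1.60 to -1.30 in TBI, from -1.096 to -1.01 in TBI+Imipramine, from -1.41 to -1.02 in TBI+Prozac and from -1.19 to -0.93 in TBI+Zoloft. On the series table, the medians over the 404 members lay closer together, at -1.46 in TBI, -1.32 in TBI+Imipramine, -1.39 in TBI+Prozac and -1.18 in TBI+Zoloft. On the scanner scale, the lowest of the 4 injured groups was TBI for 237 members, TBI+Zoloft for 58, TBI+Imipramine for 57 and TBI+Prozac for 52. This was not counted over all probes, and it depends on the scaling of the arrays. The 2 Sham arrays themselves differed by a median of 0.27, and the gap between the lower Sham array and the highest injured array had a median of 0.41. On the scanner scale 29 members overlapped between Sham and injured arrays. As background, 14.1% of the 18421 probes over the low limit had all 12 injured columns below both Sham columns, whatever the size of the difference, and 9.0% had all 12 above.

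**Figure D2:**
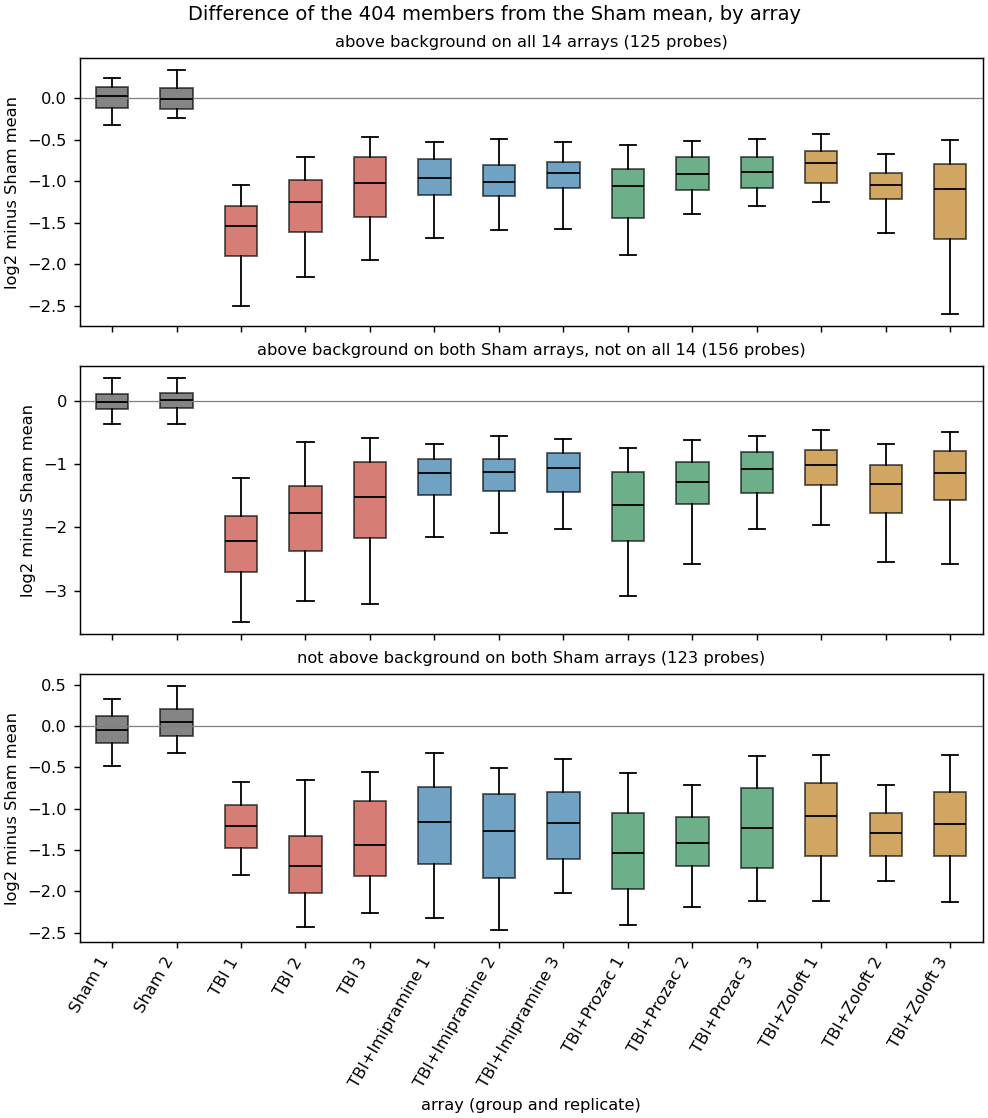
Difference of each member from its Sham mean (log2, vertical axis) on each of the 14 arrays, for the 125, 156 and 123 members of the 3 background classes. Boxes span the quartiles with the median as a line, and whiskers run from the 5th to the 95th percentile. Among the 156 members above background in Sham but not on all arrays, the TBI arrays and TBI+Prozac replicate 1 have the lowest medians.

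The values nearest to the limit show how the set was bounded. The members with the smallest group difference on the series table were Gpm6b, a glial and neuronal membrane proteolipid, at -0.803 in TBI, Dagla at -0.805 in TBI+Imipramine and Mip, a lens aquaporin, at -0.807 in TBI+Zoloft. The closest named probes outside it were those for Pecr, a peroxisomal reductase (-0.7996 in TBI+Imipramine), Themis2, a lymphocyte adaptor (-0.799 in TBI+Zoloft), and Nkain4, a membrane protein that binds the sodium pump (-0.799 in TBI). A limit of 0.6 gave 749 probes and a limit of 1 gave 220. Applied to the scanner values, the rule picked 272 probes, of which 267 were among the 404.

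The named members were grouped by role after their values were seen, and the genes shown within a group are examples. Apart from the olfactory and vomeronasal receptors, such genes were not counted over the whole array. The sizes of these groups are therefore descriptions only. Junction and myelin membrane proteins were bright. All 6 of their probes were above background on all 14 arrays, with Sham means between 0.28 and 2.01, and their group differences from Sham ranged from -0.66 to -1.59. Mobp, a structural protein of central myelin, read 0.80 and 1.46 in Sham, -0.86, 0.58 and -0.33 in TBI, 0.17, 0.004 and 0.31 in TBI+Imipramine, 0.52, 0.15 and -0.51 in TBI+Prozac and 0.03, 0.29 and -0.22 in TBI+Zoloft. The 4 injured groups were 1.96- to 2.52-fold lower than Sham, and TBI replicates differed among themselves by more than the drug groups did. Mal, a proteolipid of compact myelin, was 1.68- to 2.56-fold lower and Tspan2, a tetraspanin of oligodendrocytes, 1.58- to 1.86-fold lower.

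Gjb6 encodes connexin 30, a gap junction protein of astrocytes. It read 1.30 and 0.67 in Sham, -0.55, -0.31 and 0.08 in TBI, -0.70, -0.21 and -0.59 in TBI+Imipramine, -0.43, -0.18 and -0.29 in TBI+Prozac and 0.58, 0.33 and -2.26 in TBI+Zoloft. The injured groups were 2.37- to 2.80-fold lower on average, but in TBI+Zoloft the low mean came from replicate 3, since replicates 1 and 2 lay just under the lower Sham value. Without that array the TBI+Zoloft mean was -0.53 from Sham rather than -1.44, and Gjb6 no longer met the rule. Cldn10, a claudin found in astrocytes in brain, read 0.32 and 0.23 in Sham, -1.29, -0.78 and -0.47 in TBI, -0.99, -1.04 and -0.73 in TBI+Imipramine, -0.65, -0.24 and -0.44 in TBI+Prozac and -0.59, -0.91 and -2.43 in TBI+Zoloft. Its TBI+Zoloft replicate 3 was again the lowest array, although all 12 injured values lay below Sham by 0.48 or more. Gpm6b had 3 such low arrays, with 1.25, 1.26 and -0.66 in TBI+Imipramine, 1.19, 1.11 and -0.58 in TBI+Prozac and 1.43, 1.103 and -1.44 in TBI+Zoloft, against 1.64 and 1.88 in Sham and 0.56, 1.101 and 1.28 in TBI.

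TBI+Zoloft replicate 3 was the lowest of the 12 injured arrays for 27 of the 61 named members above background on all arrays, and TBI replicate 1 for 19 of them. Among the 64 unnamed members of the same brightness, TBI replicate 1 was lowest for 40 and TBI+Zoloft replicate 3 for 9. Such counts were not made over all probes. Over the 17322 tested probes, the median difference from Sham was -0.23 on TBI replicate 1, the lowest of the 12 injured arrays, and 0.03 on TBI+Zoloft replicate 3. The genes lowest on TBI+Zoloft replicate 3 included Gjb6, Gpm6b, Btbd17, Cldn10, Tril, Prodh and both probes of Aifm3. Leaving that array out took 12 of the 61 named bright members out of the rule, among them Gjb6, Bcan, Tspan2, Abcd2 and Padi2. Leaving out TBI+Prozac replicate 1 also took out 12, among them C1ql3, Vipr2, Dagla, Chn1 and Lix1.

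**Figure D3:**
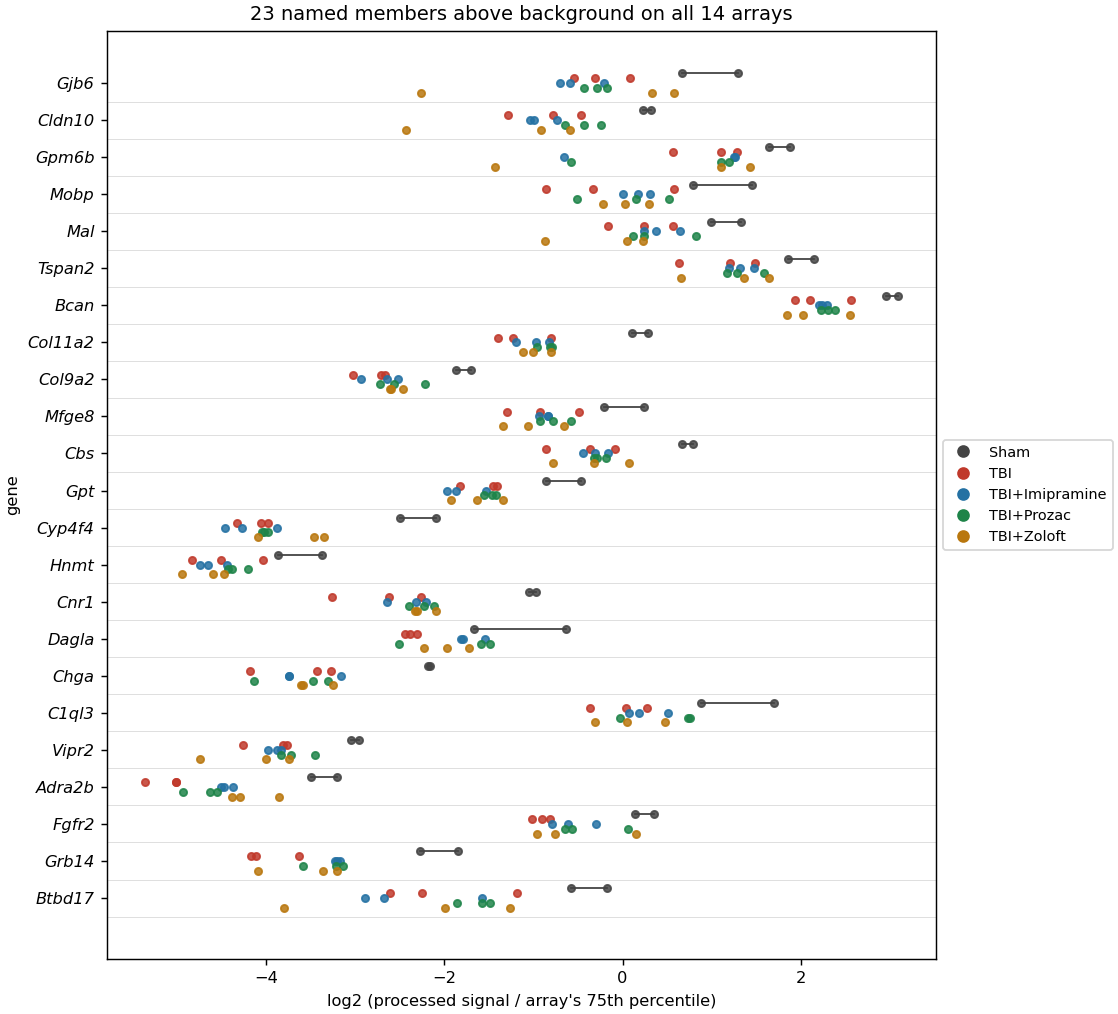
Log2 value relative to the array's 75th percentile (horizontal axis) of 23 named members that were above background on all 14 arrays. Each point is 1 rat, coloured by group, and the line joins the 2 Sham rats. TBI+Zoloft replicate 3 lies far to the left for Gjb6, Cldn10, Gpm6b and Btbd17, while Cnr1, Chga and Cbs have all injured rats left of Sham with a clear gap.

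Extracellular matrix and cell surface proteins contributed 6 members, 4 of them above background on all arrays with differences from -0.72 to -1.34. Bcan encodes brevican, a chondroitin sulphate proteoglycan of perineuronal nets, and was the brightest member of all. It read 3.10 and 2.96 in Sham, 1.94, 2.10 and 2.56 in TBI, 2.21, 2.30 and 2.24 in TBI+Imipramine, 2.23, 2.31 and 2.38 in TBI+Prozac and 2.55, 2.02 and 1.85 in TBI+Zoloft. All injured values were below the lower Sham value by 0.40 or more, and the groups were 1.65- to 1.85-fold lower. Col11a2, a fibrillar collagen chain, read 0.10 and 0.29 in Sham, -1.23, -1.40 and -0.80 in TBI, -0.97, -1.198 and -0.83 in TBI+Imipramine, -0.79, -0.82 and -0.96 in TBI+Prozac and -1.01, -1.12 and -0.80 in TBI+Zoloft, and its injured groups were 2.08- to 2.53-fold lower. Hapln1, the link protein that binds hyaluronan to such proteoglycans, was above background on 13 arrays and was 1.79- to 2.19-fold lower in the 3 drug groups. Col9a2, another collagen chain, differed from Sham by -1.01, -0.91, -0.72 and -0.77 in the TBI, imipramine, Prozac and Zoloft groups, respectively. Mfge8, a secreted bridge between dying cells and phagocytes, differed by -0.92, -0.88, -0.78 and -1.04 in the same order.

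Enzymes of amino acid, lipid and foreign compound metabolism were grouped together, with 17 genes and 18 probes, 11 of them above background on all arrays. Cbs, cystathionine beta-synthase, which forms cystathionine and hydrogen sulphide from sulphur amino acids, read 0.79 and 0.67 in Sham, -0.86, -0.36 and -0.08 in TBI, -0.31, -0.17 and -0.44 in TBI+Imipramine, -0.28, -0.18 and -0.32 in TBI+Prozac and 0.07, -0.32 and -0.79 in TBI+Zoloft. Every injured rat lay at least 0.60 below both Sham rats, and the groups were 1.99- to 2.24-fold lower. Prodh, the mitochondrial proline dehydrogenase, had a bright and a dim member probe. The bright one read -0.54 and -0.62 in Sham, -2.11, -1.65 and -1.78 in TBI, -1.99, -1.98 and -2.49 in TBI+Imipramine, -1.74, -1.62 and -1.83 in TBI+Prozac and -1.50, -1.37 and -2.90 in TBI+Zoloft, which put the groups 2.22- to 2.97-fold below Sham.

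Among the probes of this group above background on all arrays, the largest differences belonged to Cyp4f4, a cytochrome P450 that hydroxylates leukotrienes and arachidonic acid. It read -2.10 and -2.50 in Sham, -4.34, -3.98 and -4.06 in TBI, -4.46, -3.88 and -4.27 in TBI+Imipramine, -3.99, -4.02 and -4.05 in TBI+Prozac and -3.35, -3.46 and -4.09 in TBI+Zoloft and was 2.52- to 3.75-fold lower, least so in TBI+Zoloft. Aox1, an aldehyde oxidase, read -2.08 and -1.85 in Sham and -5.64, -3.55 and -4.92 in TBI, where 2 of 3 arrays were above background, and was 2.75- to 2.95-fold lower in the 3 drug groups. Gpt, alanine aminotransferase, differed from Sham by -0.90, -1.12, -0.81 and -0.97 in the TBI, imipramine, Prozac and Zoloft groups. Hnmt, which inactivates histamine by methylation, differed by -0.84, -0.99, -0.72 and -1.05 in that order.

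Transporters included Abcg2, an efflux pump of the blood-brain barrier, and Abcd2, a peroxisomal importer of very long chain fatty acids. Abcg2 read -2.004 and -2.57 in Sham, -5.002, -4.60 and -3.26 in TBI, -2.98, -3.36 and -3.98 in TBI+Imipramine, -3.41, -3.28 and -2.90 in TBI+Prozac and -3.51, -4.12 and -4.18 in TBI+Zoloft, so that TBI replicates 1 and 2 were lower than every other array. It was 1.88- to 3.15-fold lower than Sham in the drug groups, and 1 of the 3 TBI arrays was not above background. Abcd2 was 1.54- to 2.08-fold lower.

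Members of endocannabinoid, peptide and monoamine signalling numbered 9 genes. Cnr1, the cannabinoid receptor CB1, which restrains transmitter release, read -0.97 and -1.05 in Sham, -3.26, -2.62 and -2.26 in TBI, -2.21, -2.32 and -2.65 in TBI+Imipramine, -2.40, -2.12 and -2.23 in TBI+Prozac and -2.10, -2.31 and -2.34 in TBI+Zoloft. All injured rats lay at least 1.05 below both Sham rats, with a fold difference from 2.36 in TBI+Zoloft to 3.25 in TBI. Dagla, the lipase that makes the CB1 ligand 2-arachidonoylglycerol, read -1.67 and -0.64 in Sham, -2.44, -2.31 and -2.39 in TBI, -1.54, -1.79 and -1.81 in TBI+Imipramine, -2.51, -1.59 and -1.49 in TBI+Prozac and -2.23, -1.98 and -1.73 in TBI+Zoloft. Here the Sham rats differed by more than 1 log2 unit from each other, and on the scanner scale the Sham and injured values overlapped. Trpv1, a cation channel that the endocannabinoid anandamide can open, had 2 dim member probes, 1 above background on 7 arrays and 1 on none.

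Chga encodes chromogranin A, a protein of dense-core vesicles. It read -2.16 and -2.18 in Sham, -4.18, -3.43 and -3.27 in TBI, -3.74, -3.17 and -3.75 in TBI+Imipramine, -4.14, -3.48 and -3.30 in TBI+Prozac and -3.26, -3.61 and -3.58 in TBI+Zoloft, and the injured groups were 2.48- to 2.77-fold lower while the Sham rats differed by 0.02. C1ql3, a secreted synaptic organiser of granule cells, read 0.88 and 1.70 in Sham, -0.37, 0.04 and 0.27 in TBI, 0.51, 0.19 and 0.07 in TBI+Imipramine, -0.03, 0.76 and 0.73 in TBI+Prozac and 0.05, -0.31 and 0.48 in TBI+Zoloft, with 1.75- to 2.48-fold lower means and Sham rats that differed by 0.82. Vipr2, a receptor for vasoactive intestinal peptide and PACAP, was 1.58- to 2.23-fold lower. Adra2b, the alpha-2B adrenergic receptor, read -3.50 and -3.21 in Sham, -5.36, -5.01 and -5.02 in TBI, -4.51, -4.48 and -4.37 in TBI+Imipramine, -4.94, -4.63 and -4.55 in TBI+Prozac and -4.39, -4.29 and -3.86 in TBI+Zoloft. It was lowest in all TBI rats and 1.77- to 3.42-fold lower than Sham over the groups.

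Hcrt, the precursor of the hypothalamic orexin peptides, was dim and above background on 12 arrays. It read -4.42 and -3.89 in Sham, -5.42, -5.59 and -5.59 in TBI, -4.84, -5.15 and -5.22 in TBI+Imipramine, -5.13, -5.51 and -5.38 in TBI+Prozac and -5.93, -5.89 and -5.86 in TBI+Zoloft. TBI+Imipramine lay highest and TBI+Zoloft lowest among the drugs, with no overlap between these groups. Hcrt was the 1 member of 281 tested for which limma's moderated F test found a difference among the 3 drugs (adjusted p = 0.0385), where 3.18% of all 17322 probes were called. Since the rule used the values of the drug groups, this describes a chosen probe and is no independent test. Hcrt was not called after quantile normalization, on the series table, with normexp, with no filter, with slide as a fixed block or with the replicate block. Nor was it called without TBI replicate 2, or without any single drug array other than TBI+Imipramine replicate 3.

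Growth factor and small GTPase signalling was represented by 11 genes, 6 of them above background on all arrays. Fgfr2, a receptor for fibroblast growth factors, read 0.36 and 0.13 in Sham, -0.91, -0.81 and -1.01 in TBI, -0.30, -0.80 and -0.61 in TBI+Imipramine, 0.06, -0.57 and -0.65 in TBI+Prozac and -0.76, -0.96 and 0.16 in TBI+Zoloft. TBI+Prozac replicate 1 and TBI+Zoloft replicate 3 were close to the Sham values, and on the scanner scale the highest injured array lay above the lower Sham array. Grb14, an adaptor that inhibits the insulin receptor, read -1.85 and -2.28 in Sham, -4.18, -4.12 and -3.64 in TBI, -3.21, -3.23 and -3.18 in TBI+Imipramine, -3.59, -3.14 and -3.21 in TBI+Prozac and -3.36, -3.20 and -4.10 in TBI+Zoloft and was 2.20- to 3.76-fold lower. Its TBI rats and TBI+Zoloft replicate 3 were the 4 lowest arrays. A brighter Grb14 probe (Sham mean -0.06) differed from Sham by -0.71, -0.63, -0.41 and -0.74 in the TBI, imipramine, Prozac and Zoloft groups. Chn1, a Rac GTPase-activating protein of neurons, was 1.65- to 2.27-fold lower. Gdf10, a growth factor of the transforming growth factor beta family, read -3.23 and -3.20 in Sham, -4.56, -5.28 and -4.24 in TBI, -5.47, -5.65 and -4.89 in TBI+Imipramine, -4.80, -4.64 and -4.81 in TBI+Prozac and -3.95, -5.76 and -6.13 in TBI+Zoloft. TBI+Imipramine was 4.35-fold lower than Sham, and in TBI+Zoloft 1 rat of 3 was not above background.

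Hes5, a transcriptional repressor of the basic helix-loop-helix family induced by Notch, was near the detection limit. It read -4.36 and -4.32 in Sham, -6.07, -6.08 and -4.85 in TBI, -6.996, -6.67 and -5.78 in TBI+Imipramine, -5.84, -5.21 and -5.60 in TBI+Prozac and -5.61, -6.53 and -8.37 in TBI+Zoloft. Both Sham arrays were above background, compared with 1 TBI array, 1 TBI+Imipramine array, all 3 TBI+Prozac arrays and no TBI+Zoloft array. TBI+Prozac was 2.32-fold lower and TBI+Zoloft at least 3.26-fold lower than Sham, where such a bound takes for each undetected array the higher of its own value and its lowest detected signal. Btbd17, a BTB-domain protein, was brighter and read -0.17 and -0.58 in Sham, -2.25, -2.61 and -1.19 in TBI, -2.90, -2.68 and -1.58 in TBI+Imipramine, -1.86, -1.49 and -1.57 in TBI+Prozac and -1.27, -1.996 and -3.80 in TBI+Zoloft. It was 2.40- to 4.02-fold lower, with the lowest value again on TBI+Zoloft replicate 3.

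Notch acts through the DNA-binding protein RBPJ, whose preferred letters are GTGGGAA. Hes5 is the classical target with such letters near its start site, and its promoter is shown with those of Cbs and Mfge8, bright members whose windows hold the same letters. Each window runs from 250 bases before to 50 after the start of the gene in RefSeq, build GRCr8, 5′ to 3′ on the gene's strand, with GTGGGAA and its reverse complement in capitals. The Hes5 window is chr5:170804327-170804626 on the plus strand, that of Cbs chr20:9733876-9734175 and that of Mfge8 chr1:142489382-142489681, both on the minus strand.
Hes5: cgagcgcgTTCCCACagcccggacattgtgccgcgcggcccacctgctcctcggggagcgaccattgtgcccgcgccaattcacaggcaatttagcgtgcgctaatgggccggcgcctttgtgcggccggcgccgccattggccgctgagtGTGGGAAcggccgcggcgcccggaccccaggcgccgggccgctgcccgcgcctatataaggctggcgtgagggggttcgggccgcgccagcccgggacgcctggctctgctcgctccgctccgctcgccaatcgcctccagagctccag
Cbs: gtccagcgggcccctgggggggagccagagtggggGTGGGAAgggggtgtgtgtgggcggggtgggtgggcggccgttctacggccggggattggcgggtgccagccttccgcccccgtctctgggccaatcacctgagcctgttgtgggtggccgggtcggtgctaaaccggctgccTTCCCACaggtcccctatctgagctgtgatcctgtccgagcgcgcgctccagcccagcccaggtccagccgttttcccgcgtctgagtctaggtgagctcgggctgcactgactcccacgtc
Mfge8: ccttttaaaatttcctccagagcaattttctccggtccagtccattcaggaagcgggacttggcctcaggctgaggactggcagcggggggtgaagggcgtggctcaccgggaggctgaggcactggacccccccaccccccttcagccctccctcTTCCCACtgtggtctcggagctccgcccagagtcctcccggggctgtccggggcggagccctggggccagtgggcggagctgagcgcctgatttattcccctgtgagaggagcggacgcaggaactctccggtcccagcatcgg
Counted from the start site, the letters began at -242 and -99 for Hes5, at -215 and -72 for Cbs and at -94 for Mfge8. Promoters were found for 132 of the 163 named genes, and 8 of them (6.06%) held these letters on either strand, against 6.19% of the 27457 promoters in the table. The members were also near the share of all promoters for the E-box CACGTG (6.06% against 6.65%) and the cyclic AMP response element TGACGTCA (2.27% against 1.91%). No member window held the palindrome bound by nuclear factor I, which was in 0.044% of all promoters. These are matches of letters, and binding was not measured.

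The members with the lowest means on the series table were dim, and several rested on a few arrays. Sptb, the beta-spectrin of the red cell membrane skeleton, had the lowest mean of all, at -2.67 over the 12 injured columns. It read -3.79 and -3.90 in Sham, -4.11, -6.01 and -5.14 in TBI, -8.47, -8.94 and -8.45 in TBI+Imipramine, -8.34, -6.20 and -5.05 in TBI+Prozac and -5.32, -6.83 and -5.53 in TBI+Zoloft. The 3 TBI+Imipramine rats and TBI+Prozac replicate 1 stood apart at the bottom. TBI+Imipramine was at least 7.16-fold below Sham, whereas TBI replicate 1 lay 0.21 under the lower Sham rat. Adrb3, the beta-3 adrenergic receptor, read -5.01 and -4.70 in Sham, -7.72, -7.34 and -6.44 in TBI, -6.51, -7.49 and -6.17 in TBI+Imipramine, -6.72, -7.63 and -7.30 in TBI+Prozac and -7.16, -7.68 and -8.14 in TBI+Zoloft. It was above background on the 2 Sham arrays alone and was at least 2.60- to 3.34-fold lower in the injured groups. Brap, a BRCA1-associated ubiquitin ligase that restrains Ras signalling, was above background on no TBI array and was at least 3.79-fold lower there. Its mean over the injured columns of the series table was -2.21 from Sham.

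Further genes among the lowest 25 named probes included Ash1l, a histone methyltransferase, Tob1, an antiproliferative protein, Slc22a15, an organic ion transporter, Tbxt, a mesodermal transcription factor, and the plasma proteins Alb and Afp. Alb, serum albumin, read -2.15 and -3.31 in Sham, -4.55, -5.04 and -4.18 in TBI, -4.37, -4.82 and -4.04 in TBI+Imipramine, -4.12, -4.41 and -4.47 in TBI+Prozac and -3.60, -6.64 and -5.40 in TBI+Zoloft, and its Sham rats differed by more than 1 log2 unit. Helq, a DNA helicase, Bin2a, a BAR-domain protein, Tbca, a tubulin-folding cofactor, the odorant receptors Or4k48b and Or9k7 and Zbtb20, a zinc finger repressor of the hippocampal lineage, were also among the 25 but were above background on no array. C8h3orf62 was above background on 1 array, and RGD1564712 and the odorant receptor Or8h7 on 2. Likeness to the 3 lowest members was computed over the 12 injured arrays. Brap was above background on 5 of them and none of TBI, and the members whose values followed Brap most closely were Sfswap (Pearson r = 0.881), an unnamed probe (0.865), Sec14l1 (0.86), Ms4a15 (0.857) and another unnamed probe (0.843). No likeness is given for Adrb3, which was above background on no injured array, or for Sptb, whose closest named member was above background on no array. These coefficients are the highest among all members, share slides, scaling and background levels among the arrays, and are given as descriptions.

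Olfactory and vomeronasal receptors, which detect odours and pheromones and are not known for a role in hippocampus, accounted for 14 of the 163 genes. The array held 1263 genes of this kind with a symbol, among 18643 probes with a symbol. Of the 14 members, 7 were above background on no array and 2, Or13p4 and Or6al1, on all 14. Or13p4 read -2.47 and -2.70 in Sham, -4.81, -4.51 and -4.10 in TBI, -4.12, -3.81 and -3.39 in TBI+Imipramine, -4.12, -4.02 and -4.04 in TBI+Prozac and -3.39, -3.97 and -3.95 in TBI+Zoloft, which was 2.27- to 3.70-fold lower than Sham and lowest on average in TBI. Or1x2d, above background on 12 arrays, read -3.61 and -3.73 in Sham, -5.70, -6.05 and -5.94 in TBI, -4.90, -5.94 and -5.53 in TBI+Imipramine, -5.14, -5.78 and -5.47 in TBI+Prozac and -5.55, -5.98 and -4.76 in TBI+Zoloft.

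Other probes of the same gene gave a further reading of the members. For 25 genes, 26 pairs of a kept member probe and another kept probe could be compared. Members that failed the filter were left out of these pairs. Among them, the kept other probes of Gnat1 and St6galnac3 lay below Sham in all 4 groups and that of Eapp above Sham in all 4. Those of Klhl26 and Zbtb20 lay on both sides. For Zbtb20 that probe was above background on all 14 arrays and differed by 0.01, 0.055, 0.40 and -0.46 in the TBI, imipramine, Prozac and Zoloft groups. Over the 26 pairs, the median of the mean difference over the 4 groups was -1.13 for the member probes, which the rule chose, and -0.37 for the other probes. Of the latter, 21 lay below 0 and 3 lay 0.8 or more below Sham. The widest gaps were those of Qsox2, Slc22a15 and S100b, a calcium-binding protein of astrocytes. The S100b member probe had a Sham mean of -3.24 and read -2.87 and -3.61 in Sham, -7.60, -5.32 and -5.90 in TBI, -8.80, -4.08 and -3.72 in TBI+Imipramine, -5.99, -4.04 and -4.70 in TBI+Prozac and -3.62, -4.20 and -5.32 in TBI+Zoloft, a range of more than 5 log2 units among the injured rats. The other S100b probe had a Sham mean of 4.16, was above background on all arrays, and differed from Sham by -0.46, -0.50, -0.32 and -0.39 in the TBI, imipramine, Prozac and Zoloft groups.

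Other genes behaved similarly. The second Cnr1 probe, dimmer than the member in Sham at -3.38, differed by -0.23, -0.51, 0.13 and -0.50 in the same order. The second Mobp probe differed by -0.36, 0.10, -0.16 and -0.58, and the brighter second probe of Fgfr2 by -0.33, 0.13, 0.01 and -0.29. In contrast, the second Col11a2 probe differed by -0.87, -1.08, -0.55 and -1.13, and that of Phlda2, an imprinted gene with a pleckstrin-like domain, by -0.81, -1.003, -0.45 and -1.59. Aifm3, a mitochondrial flavoprotein, Prom1, the membrane glycoprotein prominin 1, Prodh and Trpv1 each had 2 member probes. Probe sequences were not used here.

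**Figure D4:**
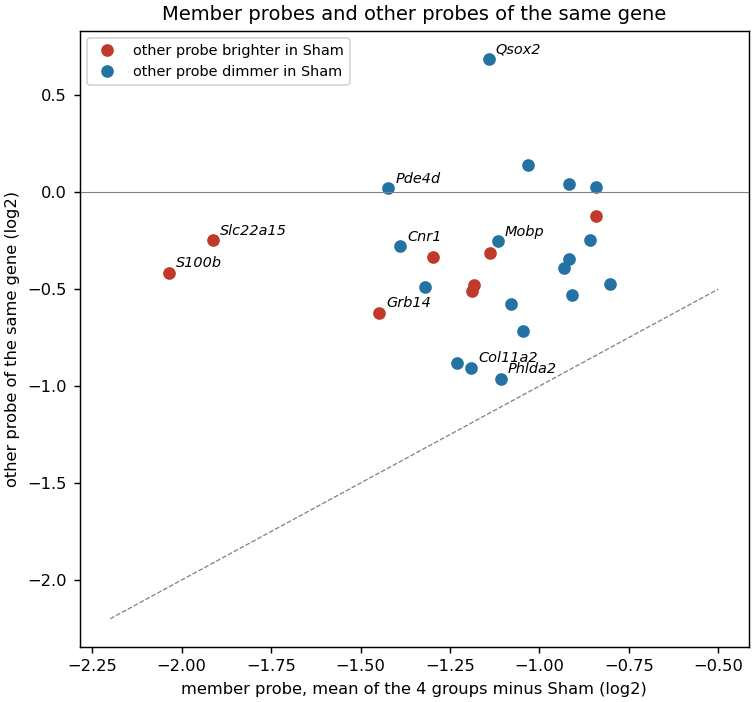
Mean difference from Sham over the 4 injured groups (log2) of 26 pairs of a kept member probe (horizontal axis) and another kept probe of the same gene (vertical axis), coloured by which was brighter in Sham. The dashed line marks equal values. All other probes lie above the line, Qsox2, Slc22a15 and S100b farthest from it and Col11a2 and Phlda2 close to it.

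Marker genes of hippocampal cell types were largely outside the set, although the tissue expressed them, with 11 of 14 pan-neuronal and 14 of 16 pyramidal cell markers measured. As background to the counts below, limma called 8.32%, 3.6%, 3.16% and 1.8% of all probes lower than Sham and 8.3%, 19.8%, 11.7% and 4.16% higher in the TBI, imipramine, Prozac and Zoloft groups. Of 17 measured homeostatic astrocyte markers, 2 (Gjb6 and S100b) had a member probe, and of 19 measured oligodendrocyte-lineage markers only Mobp had. On the brightest probe per gene, the astrocyte list had median differences from Sham of -0.30, -0.31, -0.20 and -0.18 in the TBI, imipramine, Prozac and Zoloft groups, and limma called 0, 1, 0 and 0 of the 17 genes lower and none higher (adjusted p under 0.05). The summed signal of that list on a log2 scale was 6.424 to 6.564 in Sham. It was 5.735 to 6.374 in TBI, 6.064 to 6.185 in TBI+Imipramine, 6.08 to 6.297 in TBI+Prozac and 6.171 to 6.525 in TBI+Zoloft. Only TBI+Zoloft thus overlapped with Sham. The oligodendrocyte list summed to 6.63 to 6.92 in Sham and 5.925 to 6.834 in the injured rats, and every injured group overlapped with Sham. The pyramidal cell list, on which Zbtb20 had a member probe, summed to 4.604 to 4.804 in Sham and 4.252 to 4.428 in TBI. Its sums were 4.326 to 4.536 in TBI+Imipramine, 4.52 to 4.623 in TBI+Prozac and 4.196 to 4.435 in TBI+Zoloft. The pan-neuronal and interneuron sums of every injured group overlapped with Sham. The 5 measured dentate granule cell markers, of 14 listed, summed to 1.595 to 2.307 in Sham and 0.46 to 1.42 in the injured rats, but this list holds the member C1ql3, its brightest gene. Without C1ql3 the sums were 0.239 to 0.759 in Sham and -0.959 to 0.282 over all injured rats, so that the highest injured rat lay just above the lower Sham rat. Of the 14 measured microglial and macrophage markers, 4, 7, 5 and 5 were called higher than Sham in the TBI, imipramine, Prozac and Zoloft groups, with sums of 3.87 to 3.94 in Sham and 4.11 to 4.68 in the injured rats, and none was a member. Choroid plexus and ependymal markers varied from 0.76 to 6.83 among rats of all groups. Whether these shifts in cell types had a part in the members' values was not tested.

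Over 30 lists of cell types, functions and gene families, 1108 genes were measured. A member probe was found for 21 of these and for 33 of all listed genes, and 11 of the measured genes were called lower than Sham in all 4 injured groups by limma, where 0.774% of all 17322 probes were. Since this contrast was used by the rule, the count is a description. It included Adra2b, Cnr1, Hcrt, Slc25a33 and the odorant receptors Or13p4, Or1x2d, Or6al1 and Or8h7 among the members and, outside the set, Kcng2, a modulatory potassium channel subunit, Gabrq, the theta subunit of the GABA-A receptor, and Chrd, the BMP antagonist chordin. Gabrq differed from Sham by -1.34, -0.98, -0.96 and -0.66, and Chrd by -0.96, -0.87, -0.58 and -0.95, in the TBI, imipramine, Prozac and Zoloft groups. Of the 30 measured olfactory and vomeronasal receptors, 25, 13, 18 and 4 were called lower and 1, 1, 1 and 0 higher in these groups, and 10 of the 30 were measured only because they were above background in Sham. Of the 29 measured sodium and calcium channel genes none was a member, and 7, 4, 1 and 2 were called lower. The count of 11 fell to 1 without Sham replicate 1 and to 2 without Sham replicate 2, and was 36 after quantile normalization.

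The rule did not compare antidepressant groups with TBI, but it chose the members on the values of the TBI and drug groups. A transcript that a drug returned to the Sham level could not be a member. The calls against TBI below therefore describe chosen probes and are no independent test of whether an antidepressant changed transcripts after injury. The same holds for the test among the drugs. Against TBI, limma called 48 of the 281 tested members in TBI+Imipramine, 47 of them higher and 1 lower, where 2.85% of all probes were called, 2.82% higher and 0.0289% lower. TBI+Zoloft had 38 called members, all higher, against 1.16% of all probes called higher. Of the called members, 46 of 48 and 34 of 38 had been kept for testing through an injured group, and the others through Sham alone. That injured group could be the drug group in which the probe read higher. Only 15 of the 48 and 12 of the 38 were above background on all 14 arrays. TBI+Prozac had none at an adjusted p under 0.05, where 0.00577% of all probes were called, and none by the methods' t-test after adjustment. At an unadjusted p under 0.05 limma called 91 members (32.4%) for Prozac, against 10.1% of all probes. The median difference from TBI over the tested members was 0.45, 0.39 and 0.39 for imipramine, Prozac and Zoloft, compared with 0.20, 0.15 and 0.01 over all probes. With slide as a fixed block these medians were 0.21, 0.21 and 0.15 for the members and 0.24, 0.17 and 0.06 for all probes, so that the imipramine median of the members then lay below that of all probes. With normexp background correction they were 0.14, 0.14 and 0.32 for the members and 0.14, 0.09 and 0.07 for all probes. Of the called probes 31 were shared by imipramine and Zoloft, which is 64.6% of the former and 81.6% of the latter, and these comparisons share the TBI arrays.

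The called probes also differed among the TBI+Prozac rats, whose arrays lay on different slides. Over the 55 members called for imipramine or Zoloft, the median difference from Sham was -2.52, -2.16 and -2.02 on the TBI arrays and between -1.16 and -0.97 on the 6 arrays of imipramine and Zoloft. TBI+Prozac replicate 1, which lay on the TBI slide, had a median of -1.93, while TBI+Prozac replicates 2 and 3, on the slide of the other drugs, had -1.27 and -1.13. It was lower than the mean of the other 2 Prozac rats for 49 of the 55 probes, by a median of 0.76 on the log2 scale. Over all 17322 probes it was lower for 7345, and its median difference was 0.05 in the other direction. Only replicate 1 of TBI+Prozac lay on the TBI slide, so that rat and slide cannot be told apart here. With slide as a fixed block, 0 members were called for imipramine (2 of all probes), 1, an unnamed probe, for Prozac (7 of all probes) and 0 for Zoloft (1 of all probes). In that fit the comparison rests on TBI+Prozac replicate 1 and the median standard error of the imipramine and Zoloft differences rose from 0.28 to 0.47. At an unadjusted p under 0.05 it called 26, 29 and 31 members (9.25%, 10.3% and 11%) for imipramine, Prozac and Zoloft, against 6.4%, 5.97% and 4.24% of all probes. Without TBI+Prozac replicate 1, 27 members were called for Prozac among 122 of all probes (0.703%). Slide and drug cannot be told apart for imipramine and Zoloft in the fit without the slide.

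**Figure D5:**
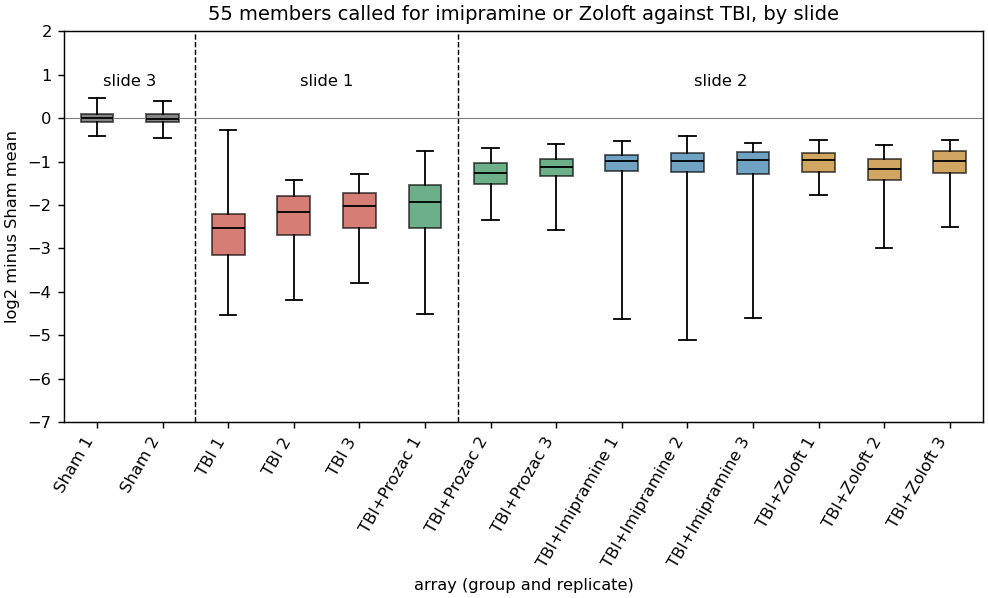
Difference from the Sham mean (log2) of the 55 members called for imipramine or Zoloft against TBI, on each array, ordered by slide. Boxes span the quartiles, lines are medians and whiskers reach the extremes. TBI+Prozac replicate 1, on slide 1 with the TBI rats, has a median of -1.93, and TBI+Prozac replicates 2 and 3 on slide 2 have -1.27 and -1.13.

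The called members were mostly unnamed. Of the 55 probes, 31 had only a probe name and 9 a curated mRNA, and 5 of the imipramine calls and 8 of the Zoloft calls had a gene symbol. Gsta5, a glutathione transferase, was higher by 1.17 ± 0.28 (SE) on the log2 scale with imipramine (adjusted p = 0.047, limma) and by 1.32 ± 0.28 with Zoloft (adjusted p = 0.042). With slide as a block these became 0.11 ± 0.36 and 0.26 ± 0.36. Ccdc60, a coiled-coil protein, read -3.56 and -3.47 in Sham, -5.92, -5.18 and -5.08 in TBI, -4.35, -4.59 and -4.11 in TBI+Imipramine, -4.56, -4.69 and -4.75 in TBI+Prozac and -4.34, -4.43 and -4.29 in TBI+Zoloft. It was higher by 1.04 ± 0.20 with imipramine (adjusted p = 0.019, limma) and by 1.04 ± 0.20 with Zoloft (adjusted p = 0.032), and by 1.197 ± 0.367 and 1.195 ± 0.367 with slide as a block, where neither passed after adjustment (adjusted p = 0.656 and 0.998, limma).

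For Adra2b, the Zoloft difference was 0.95 ± 0.17 (adjusted p = 0.028, limma) and 0.60 ± 0.29 with slide as a block. Fgd3, a Cdc42 exchange factor, was higher by 0.69 ± 0.14 with Zoloft (adjusted p = 0.036, limma), and Lypd2, a Ly6-family protein, by 0.80 ± 0.16 (adjusted p = 0.037). Qsox2, a sulfhydryl oxidase, was higher by 0.86 ± 0.19 with imipramine (adjusted p = 0.038, limma). A dimmer Qsox2 probe, above background on 8 arrays, lay above Sham by 0.74, 0.92, 0.89 and 0.20 in the TBI, imipramine, Prozac and Zoloft groups. TBI had 2 of 3 arrays above background for Gsta5, Ccdc60 and Qsox2. With slide as a block, none of the 8 named Zoloft calls passed (adjusted p = 0.998 for each, limma) and none of the 5 named imipramine calls (adjusted p from 0.063 to 0.957).

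Other called genes were near the detection limit. Slc22a15 was at least 1.80-fold higher in TBI+Zoloft than in TBI. All 3 Zoloft arrays and no TBI array were above background, so no p is given. With slide as a block its Zoloft difference was 0.02 ± 0.44 (SE) on the log2 scale. The brighter second probe of Slc22a15, above background on all 14 arrays, differed from Sham by -0.32 in TBI and -0.10 in TBI+Zoloft. Bicdl1, an adaptor of the dynein motor, and Tob1 were also among the called members, but both had entered the test only through Sham. No TBI array was above background for either, and the Zoloft arrays above background were 1 for Bicdl1 and 0 for Tob1, so no fold or p is given. The 1 member called lower with a drug was Sptb, at least 3.03-fold lower with imipramine than in TBI. All 3 TBI arrays and no imipramine array were above background, so no p is given here either.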

How the data were processed

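RNA from the hippocampus of 14 rats was hybridized by the authors to 1-colour Agilent arrays, and spots were read with Agilent Feature Extraction 11.5.1.1 per the labels. The deposited scanner files hold processed spot intensities, which were already background-subtracted. The deposited series table holds the authors' normalized signal on a linear scale. Set against the scanner files, between 96.5% and 97.9% of a column's values above 0.02 lay within 5% of the processed signal times 1 constant per array. According to the study's methods, the authors scaled each array by the 75th percentile of its probes with intensity over background.

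Spots with outlier flags were left out, spots of a probe were averaged, and each array was divided by its 75th percentile over probes above background before log2. A probe was tested if some group had it above background on each of its arrays, which kept 17322, and the tests were run with limma 3.58.1 in R 4.3.3, in 1 fit of all 5 groups, with Benjamini-Hochberg adjustment over all probes and a threshold of 0.05. The fit was tested on simulated data. The rule used the series table, and all other values came from the scanner files. Gene symbols came from RefSeq, and probes without 1 symbol are counted only. The replicates are separate rats per the labels, and with 2 or 3 per group the number of arrays limits the precision.

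The members and lists were chosen with earlier results of these data known. Named genes were the 25 with the lowest mean difference on the series table, members on the cell type and function lists, called members and the 3 probes on either side of the limit. The other genes shown, and the role groups, were chosen after their values were seen. Alternatives were normexp, quantile normalization, the series table, other filters, outlier spots kept, slide blocks, a replicate block, the methods' t-test and leaving out each array. Normexp used the median spot signal in place of the mean. Columns of no sample were not used. Some named members are not reported here.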

Additional observations from a re-analysis of the deposited data

How the results depend on the processing

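The rule picked 749 probes at a limit of 0.6, 220 at a limit of 1, and from 389 (without TBI+Prozac replicate 1) to 983 (without Sham replicate 1) when 1 array was left out, with 694 without Sham replicate 2. For imipramine against TBI, the 48 called members (494 of all probes) became 26 (363) with normexp, 10 (50) with quantile normalization, 11 (56) on the series table, 30 (283) with no filter, 17 (407) among probes above background on all arrays, 0 (2) with slide as a fixed block, 74 (998) with slide as a random block, 3 (27) by the methods' t-test after adjustment and 100 (2438) without adjustment, and 3 (19, without TBI+Imipramine replicate 1) to 61 (575, without TBI+Prozac replicate 1) with 1 array left out. For Prozac the count of 0 (1) became 1 (7) with slide as a fixed block, 41 (1091) by the unadjusted t-test, and 0 to 27 with 1 array left out, the 27 (122) being without TBI+Prozac replicate 1. For Zoloft the 38 (239) became 6 (22) with no filter, 14 (197) among probes above background on all arrays, 0 (1) with slide as a fixed block, 63 (703) with slide as a random block, 0 (0) and 67 (1406) by the t-test with and without adjustment, and 0 (1, without TBI+Zoloft replicate 3) to 52 (382, without TBI+Prozac replicate 1) with 1 array left out. The count of 1 member that differed among the drugs became 0 with normexp, quantile normalization, the series table, no filter, probes above background on all arrays, the replicate block and an adjusted analysis of variance, and 0 to 2 with 1 array left out. With slide as a fixed block the count was again 1, but that member was not Hcrt. The 11 listed genes became 36 with quantile normalization, 33 on the series table, 4 with no filter, 0 and 23 by the t-test with and without adjustment, and 1 to 16 with 1 array left out. The cause of these shifts was not tested.

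Over the 281 tested members, the median difference from Sham in TBI, -1.55, was -0.92 with normexp, -1.22 among probes above background on all arrays and -1.67 to -1.40 with 1 array left out. In TBI+Imipramine, -1.06 became -0.75 with normexp, -1.35 with quantile normalization, -1.30 on the series table, -0.955 among probes above background on all arrays and -1.07 to -1.03 with 1 array left out. In TBI+Prozac, -1.16 became -0.79, -1.35, -1.35 and -0.98 under the same settings and -1.25 to -1.05 with 1 array left out. In TBI+Zoloft, -1.08 became -0.61 with normexp and -1.18 to -1.004 with 1 array left out.

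Replicate numbers did not pair the rats. Over 26 pairs of same-numbered arrays, the correlation of deviations from the group mean ran from -0.23 to 0.23, and 2 pairs exceeded 0.1. With the replicate block 45 members were called for imipramine, 0 for Prozac and 39 for Zoloft, none differed among the drugs, and 7 listed genes were lower in all injured groups. Most members lay near the detection limit, where signal over background limits the precision of every difference.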
